A study of Mus musculus with 18 samples.

Results

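The nuclear-encoded subunits of the mitochondrial respiratory chain were compared between 5 inbred mouse strains with anti-glomerular basement membrane (anti-GBM) nephritis. A probe was a member when its gene symbol began with Nduf, Sdha to Sdhd, Uqcr, Cox4 to Cox8 or Atp5, a choice that used names and no measured value. In the table of B6 and NZW mice, 109 of 46643 probes were members, and they read 80 genes. In the table of BALB/C, DBA1 and 129/svj mice, which carries no symbols, a probe was a member when its target identifier matched that of a B6 and NZW member. There, 50 of 46147 probes were members, and they read 45 genes. The other genes were read in B6 and NZW only.

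All mice were 2 months old and had been given antibody against the glomerular basement membrane, and RNA was taken from the kidney cortex. B6 and BALB/C are labelled resistant to this nephritis, and NZW, DBA1 and 129/svj are labelled sensitive. Each strain had 3 mice. No unchallenged mouse was in the series, so a strain difference present before the challenge and one that arose after it cannot be told apart. Each table was measured and stored apart, so strains were compared within a table. Where differences of both tables were set side by side, only the within-table differences were used. BALB/C, DBA1 and 129/svj mouse 1 each had a repeat array, which was averaged with the first and counted once.

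The respiratory chain lies in the inner mitochondrial membrane. Complex I (NADH dehydrogenase) and complex II (succinate dehydrogenase, which is also a citrate cycle enzyme) pass electrons to ubiquinone, complex III passes them to cytochrome c, complex IV (cytochrome c oxidase) passes them to oxygen, and complex V (ATP synthase) uses the proton gradient to make ATP. Most subunits are encoded in the nucleus, and a few complex IV subunits have heart and muscle isoforms and other isoforms used in most tissues. Proximal tubule cells of the kidney cortex are rich in mitochondria and depend on oxidative phosphorylation.

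By complex, the B6 and NZW members were 51 probes of complex I, 7 of complex II, 8 of complex III, 21 of complex IV and 17 of complex V. A further 5 were of genes grouped as accessory whose names met the rule (Cox4nb, Cox7a2l, Ndufaf1 and Atp5s). Groups followed the names alone, so a name such as Cox4nb, or Ndufa12l in complex I, need not mean a role in the chain. The BALB/C, DBA1 and 129/svj members were 17, 3, 4, 13, 11 and 2 probes in the same order. Ndufa4 was kept with complex I by its name, although its protein is now assigned to complex IV. A probe was tested when its detection p-value was at most 0.05 in at least 3 mice of the table. This left 89 member probes of 72 genes in B6 and NZW, and 38 member probes of 35 genes in the other table. No member probe of 8 genes was tested in B6 and NZW, namely Atp5j, Cox7b2, Cox8c, Ndufc2, Ndufs1, Sdha, Uqcrfs1 and Uqcrq. In B6 and NZW, 85 member probes were detected in all 6 mice and 13 in none. In BALB/C, DBA1 and 129/svj, 31 member probes were detected in all 9 mice.

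Between 33.8% and 36.4% of all probes were detected on the B6 and NZW arrays, against 79.8% to 84.4% of member probes. The same ranges were 30.5% to 34.1% and 68% to 78% on the other arrays. Among kidney cell markers, probes of 12 proximal tubule genes in B6 and NZW, and of 9 in the other table, were detected well enough to be tested. So were probes of 6 and 5 thick limb and distal tubule genes, and of 7 and 4 collecting duct genes. Detection of these markers cannot tell cortex from other kidney tissue, so the cortex label was not tested. Values below are normalised log2 intensities, differences are on the log2 scale with their standard error (SE), and p-values are from limma with Benjamini-Hochberg adjustment over all probes tested in the table. A probe was called when the adjusted p was below 0.05. A test that the study's statistics name, without saying that it was used on array probes, was run on each probe as an alternative and is called the methods' t-test.

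The promoters of 5 members are shown because the strain differences described below were at these genes, or, for Atp5k, at 1 of its probes. They are RefSeq sequences of the C57BL/6J reference (build GRCm38.p6), run 5′ to 3′ on the strand of the gene from 250 bases before to 50 after its start, and say nothing of the sequence of the other strains. Capitals mark matches, on either strand, to 4 short motifs of factors known to act at respiratory chain genes: GCGCATGC (NRF1), CCGGAAG (ETS family, which includes GABP), AAGGTCA (ERR) and AAGATGGC (YY1).
Cox7a2l (chr17:83514284-83514583, minus strand): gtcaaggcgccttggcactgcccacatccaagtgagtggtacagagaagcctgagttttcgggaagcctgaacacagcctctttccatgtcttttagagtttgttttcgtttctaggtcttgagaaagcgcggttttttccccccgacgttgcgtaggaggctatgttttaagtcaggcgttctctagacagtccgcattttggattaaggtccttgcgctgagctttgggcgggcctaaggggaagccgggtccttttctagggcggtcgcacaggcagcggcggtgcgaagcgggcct
Cox7a2 (chr9:79759804-79760103, minus strand): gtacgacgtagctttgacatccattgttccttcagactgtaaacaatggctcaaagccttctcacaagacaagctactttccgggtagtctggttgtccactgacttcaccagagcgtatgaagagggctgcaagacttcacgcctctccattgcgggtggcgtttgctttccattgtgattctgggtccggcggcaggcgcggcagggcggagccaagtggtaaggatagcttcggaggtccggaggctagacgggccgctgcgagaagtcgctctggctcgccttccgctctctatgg
Ndufb8 (chr19:44555393-44555692, minus strand): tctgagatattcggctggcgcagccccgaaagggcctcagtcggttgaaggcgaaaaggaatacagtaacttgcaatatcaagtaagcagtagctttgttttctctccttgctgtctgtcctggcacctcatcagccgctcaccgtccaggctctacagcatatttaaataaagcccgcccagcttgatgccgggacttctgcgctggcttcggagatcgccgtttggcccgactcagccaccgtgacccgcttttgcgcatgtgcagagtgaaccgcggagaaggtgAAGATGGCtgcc
Atp5k (chr5:108434350-108434649, minus strand): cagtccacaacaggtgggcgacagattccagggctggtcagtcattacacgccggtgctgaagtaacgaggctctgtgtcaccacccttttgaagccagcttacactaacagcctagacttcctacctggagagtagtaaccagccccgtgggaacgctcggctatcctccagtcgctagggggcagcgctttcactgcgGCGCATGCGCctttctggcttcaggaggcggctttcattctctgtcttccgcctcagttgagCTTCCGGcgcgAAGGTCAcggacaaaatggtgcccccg
Cox8b (chr7:140900397-140900696, minus strand): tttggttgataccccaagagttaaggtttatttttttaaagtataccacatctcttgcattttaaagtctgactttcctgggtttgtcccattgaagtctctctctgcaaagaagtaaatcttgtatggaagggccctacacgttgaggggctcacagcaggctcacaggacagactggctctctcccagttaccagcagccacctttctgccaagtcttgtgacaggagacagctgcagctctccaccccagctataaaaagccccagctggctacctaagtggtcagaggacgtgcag

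The Atp5k window held overlapping NRF1 matches that begin 50 and 48 bases before the start, an ETS match and an ERR match, and the Ndufb8 window held a YY1 match. The windows of Cox7a2l, Cox7a2 and Cox8b held none of these letters. A promoter was found in the RefSeq table for 65 of the 80 genes. Of these 65, the NRF1 motif was in 13.8% (9 genes), ETS in 21.5% (14), ERR in 12.3% (8) and YY1 in 13.8% (9). Over all 32851 promoters of the same length the shares were 2.71%, 8.86%, 4.72% and 2.75%. The median number of CG dinucleotides was 19 in the member promoters and 7 in all promoters. Cox8b, a heart and muscle isoform, had the lowest number of all member promoters, with 2. These matches describe the sequence alone.

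Most subunits differed little between resistant B6 and sensitive NZW kidneys. Of the 89 member probes tested, 3 were called (3.37%), all higher in B6: Cox7a2, 1 of the Ndufb8 probes and Ndufb3. Over all 16766 probes tested, 18.8% were called. The member differences had a median of -0.05, against -0.04 for all probes, and 85 of the 89 lay within 0.5 on the log2 scale. Members were bright, with a median level of 11.95 against 7.4 for all probes tested.

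Complex I had 44 tested probes, and 2 were called, both higher in B6. The methods' t-test called 4, adding the bright Ndufb8 probe and a probe of Ndufs3 at -0.20, where it called 11% of all probes. Ndufb8, an accessory subunit of the membrane arm, was read by a dim and a bright probe in these strains. The dim probe (ILMN_2501071) had signals of 533, 552 and 455 in B6 mice and of 176, 155 and 142 in NZW mice. All B6 values lay above all NZW values, and the difference was 2.27 ± 0.10 (SE, n = 3 mice per strain, adjusted p = 1.2e-06), or 4.84-fold. Its size depended on the background handling, and it was 1.72 without background correction and 1.93 with offset 50, both called. The bright probe (ILMN_2621966) had signals of 22400, 21100 and 21000 in B6 and 21700, 22000 and 17300 in NZW. After normalisation its values did not overlap either, but the difference was 0.23 ± 0.10 and was not called (adjusted p = 0.14). The probes of this gene thus gave differences of unequal size, and the size of the change of Ndufb8 RNA is uncertain.

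Ndufb3, another membrane arm subunit, had normalised values of 12.79, 12.81 and 12.78 in B6 and 12.40, 12.34 and 12.45 in NZW. The difference was 0.39 ± 0.10 (adjusted p = 0.024), or 1.31-fold, and it was no longer called without any 1 of the B6 mice or without NZW mouse 2 (adjusted p from 0.054 to 0.099). The other 42 probes of complex I lay between -0.37 and 0.42. These ends were a dim probe of Ndufa10 and a probe of Ndufa6, with adjusted p of 0.22 and 0.14. Core subunits were among the probes that were not called. Ndufv1, which binds NADH, differed by -0.22 (95% interval -0.50 to 0.06). Ndufs3 and Ndufs8 had differences from -0.20 to 0.02.

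The subunits of complex II gave 3 tested probes, none called by limma, of which 2 had an unadjusted p below 0.05 by limma and 2 by the methods' t-test. Sdhb, the iron-sulfur subunit, differed by -0.26 (95% interval -0.51 to 0.00), and its second probe was detected in 1 mouse. Sdhc and Sdhd, the membrane anchors, differed by -0.32 (-0.57 to -0.06) and -0.29 (-0.58 to 0.00). All 3 differences were below 0, with adjusted p of 0.16, 0.082 and 0.15. Sdha, the flavoprotein that oxidises succinate, was detected in at most 1 of the 6 mice by either probe. Its level was not measurable with these probes.

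Complex III had 5 tested probes and none was called by limma, with 2 at an unadjusted p below 0.05 (the methods' t-test called 1, Uqcrc2). The core proteins Uqcrc1 and Uqcrc2 differed by -0.34 ± 0.10 (adjusted p = 0.054) and -0.24 ± 0.10 (adjusted p = 0.13). Uqcrb, the subunit near the ubiquinone site, differed by 0.29 (95% interval -0.03 to 0.60). Uqcrh, the hinge protein, was at 13.91 in both strains. Uqcrfs1, the Rieske iron-sulfur protein, was detected in no mouse by either probe.

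In complex IV, 1 of 17 tested probes was called. Cox7a2, the isoform of subunit VIIa used in most tissues, had signals of 597, 551 and 563 in B6 mice and 119, 103 and 101 in NZW mice. The B6 values were all far above the NZW values, of which 2 of 3 passed the detection threshold. The difference was 3.54 ± 0.13 (adjusted p = 3.5e-07), or 11.6-fold. With NZW near background its size depended on the background handling, and it was 2.44 without background correction and 2.81 with offset 50, both called. One probe reads this gene, and probe sequences were not used here, so a lower RNA level in NZW and weaker binding of the NZW sequence to the probe cannot be told apart. This limit holds for each gene above or below that rests on 1 probe, Ndufb3 among them, and for the dim probe of Ndufb8. Cox7a1, the heart and muscle isoform of the same subunit, differed by -0.25 (95% interval -0.51 to 0.01).

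Cox4i1, another isoform used in most tissues, differed by -0.13 (-0.38 to 0.12), the pair of Cox6a1 probes by -0.03 and -0.10, and the pair of Cox6b1 probes by 0.00 and -0.01. Cox4i2, the isoform known from lung, was dim and differed by 0.18 (-0.05 to 0.42). Cox6b2, the testis isoform, was read by a dim probe that differed by 0.48 (0.09 to 0.87, adjusted p = 0.087), and it was called without NZW mouse 2 (0.67, adjusted p = 0.0097). Cox8c, another testis isoform, was detected in no mouse. Cox8a, Atp5g1, Atp5g2 and Ndufa4l2 were not analysed here, and Ndufa4 differed by -0.05 (-0.29 to 0.18).

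Complex V had 15 tested probes and none was called by limma, with 4 at an unadjusted p below 0.05 (the methods' t-test called 1, a probe of Atp5o at -0.13). The catalytic beta subunit Atp5b was at 15.30 ± 0.05 in NZW and 15.19 ± 0.08 in B6 (SD, n = 3 mice). The gamma subunit Atp5c1, the central stalk, differed by -0.31 (95% interval -0.55 to -0.07, adjusted p = 0.079). A dim probe of the alpha subunit Atp5a1 differed by -0.43 (-0.82 to -0.05, adjusted p = 0.11). Atp5g3, which encodes the c subunit of the membrane ring, differed by 0.04 (-0.22 to 0.31). The 5 accessory probes differed by -0.23 to 0.02, and none had an unadjusted p below 0.05 by limma or by the methods' t-test.

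The number and direction of calls between B6 and NZW depended on the scaling, the background handling and the test. When each array was scaled to its 75th percentile in place of quantile normalisation, the median of all probes moved from -0.04 to -0.13 and that of the members from -0.05 to -0.24. There, 12 member probes were called, 2 higher and 10 lower in B6, where 21.6% of all probes were called. The share of all calls that were higher in B6 fell from 49% to 37.3%. Among the members called lower were probes of Ndufa10, Ndufs3, Sdhb, Sdhc, Uqcrc1, Uqcrc2, Atp5c1 and Atp5k, with differences of -0.55 to -0.40. Cox7a2 and the dim Ndufb8 probe stayed called, at 3.45 and 2.20. Without background correction, and also with offset 50, 3 were higher and 4 lower (Ndufa10, Sdhc, Uqcrc1 and Atp5c1). There, 20.7% and 20.4% of all probes were called. With a trend and robust variances in eBayes, 7 were higher and 5 lower, where 21.2% of all probes were called.

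Markers of proximal tubule cells also differed between these strains. Of 17 tested probes of these markers, 6 were called and all were lower in B6 (18.8% of all probes were called), among them the endocytic receptors Lrp2 (-1.16 ± 0.13, adjusted p = 0.00043) and Cubn (-0.60 ± 0.11, adjusted p = 0.007). Of 6 tubule injury probes, 4 were called: Lcn2, Timp1 and Spp1 were higher in B6, and Havcr1 was lower (-2.77 ± 0.60, adjusted p = 0.013). The B6 mice were not alike in these probes. Their median deviation from the mean over the 6 mice was 0.50, 0.75 and -0.25 in B6 mice 1, 2 and 3. In NZW mice it was -0.25, -0.44 and -0.42. In B6 mouse 3, 0 of the 6 probes lay above that mean. The part of tubule content in the member differences was not tested, and in whole cortex fewer cells of a type and less RNA per cell cannot be told apart.

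**Figure D1:**
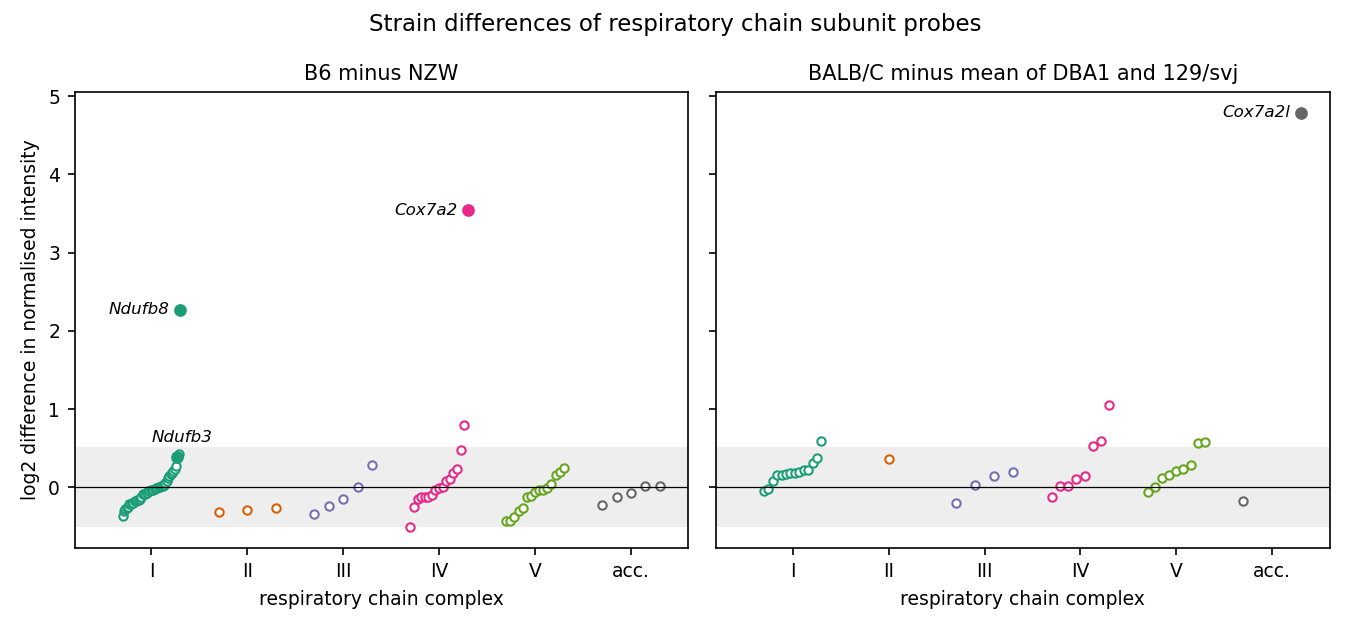
Log2 difference in normalised intensity (vertical axis) of each tested member probe, by complex (horizontal axis, acc. = genes grouped as accessory), for B6 minus NZW (left, 89 probes) and BALB/C minus the mean of DBA1 and 129/svj (right, 38 probes). Filled points were called by limma at an adjusted p below 0.05 and the grey band spans 0.5 either side of 0. In B6 minus NZW, 85 of 89 probes lie inside the band, and Cox7a2 (3.54) and a probe of Ndufb8 (2.27) lie far above it, and on the right Cox7a2l (4.79) does.

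Among BALB/C, DBA1 and 129/svj, the widest difference of any member was at Cox7a2l, which encodes a factor related to subunit VIIa that takes part in the assembly of respiratory supercomplexes. Its signals were 2090, 2050 and 1810 in BALB/C mice, 319, 278 and 240 in DBA1 mice and 109, 104 and 119 in 129/svj mice. The strains did not overlap, and the probe was detected in all 3 mice of BALB/C and of DBA1 but in none of 129/svj. BALB/C exceeded DBA1 by 3.49 ± 0.16 (adjusted p = 1e-06), or 11.2-fold. Without background correction this difference was 2.84. With the main background correction, BALB/C was at least 37-fold above 129/svj (adjusted p = 2.4e-08), and DBA1 at least 3.3-fold (adjusted p = 4.8e-06). Each bound was set by the lowest detected signals of the 129/svj arrays and holds for that correction only. Over the alternatives the fitted log2 differences went down to 4.15 and 1.32. In B6 and NZW the gene was bright in every mouse, with signals of 5800, 5490 and 5250 in B6 and 5960, 6570 and 5170 in NZW. The difference between them was 0.02 (95% interval -0.20 to 0.25), and signals of the tables are not on a common scale.

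**Figure D2:**
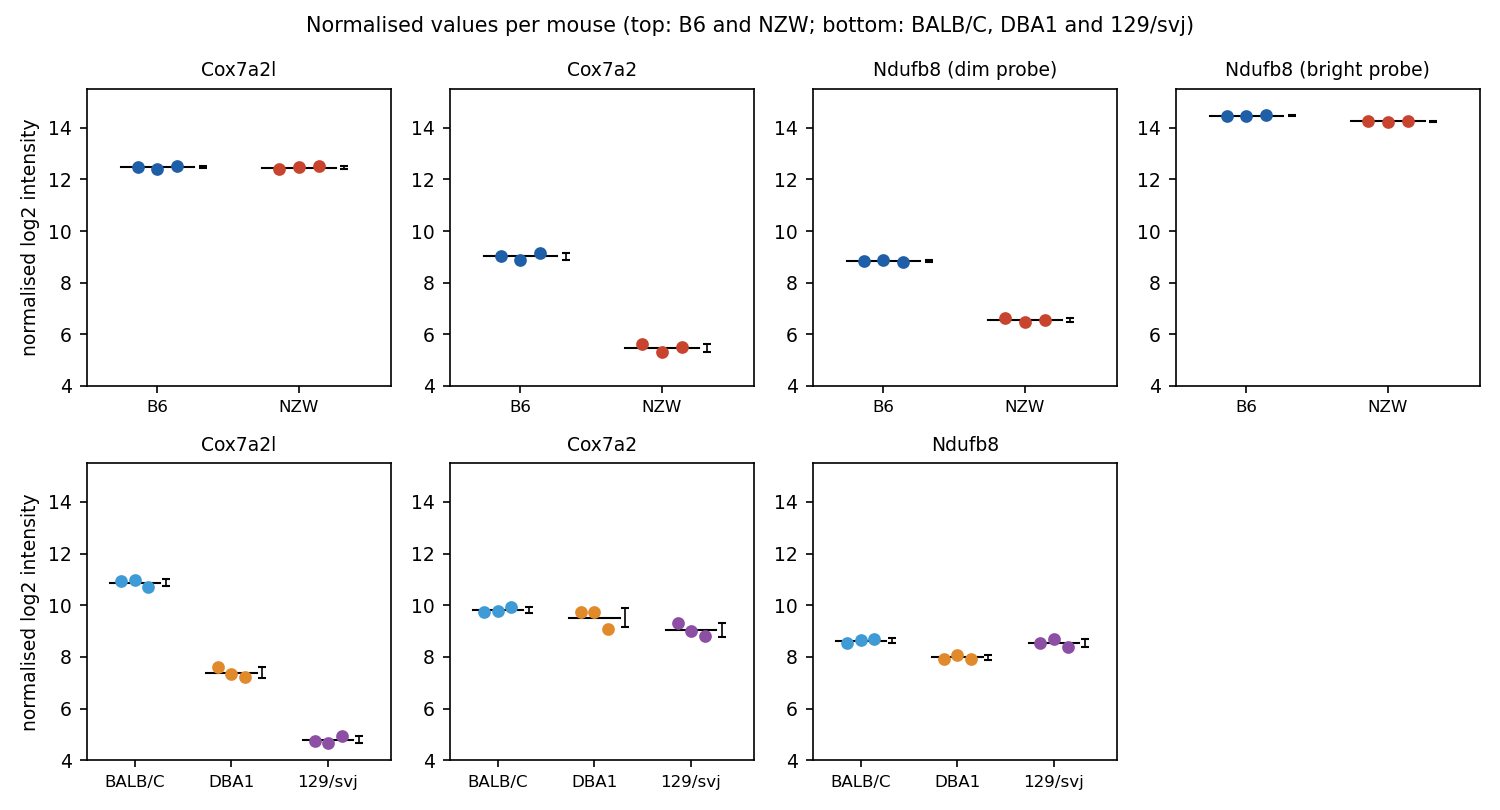
Normalised log2 intensity (vertical axis) of called members in each mouse (points) by strain, with the strain mean (line) and SD (bar, n = 3 mice). Cox7a2l is alike in B6 and NZW and falls from BALB/C (10.88) to DBA1 (7.39) to 129/svj (4.79), whereas Cox7a2 is low in NZW (5.48 against 9.01 in B6) and the gap between B6 and NZW is wider at the dim Ndufb8 probe (2.27) than at the bright one (0.23).

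Resistant BALB/C was also compared with the mean of the sensitive strains DBA1 and 129/svj. Of 38 member probes tested, only Cox7a2l was called (adjusted p = 3.3e-08), or 2.63%, against 5.99% of all 15818 probes. Its fitted difference of 4.79 rests in part on 129/svj values that were not above background, and it was 3.49 without background correction. The member median was 0.17, against 0.01 for all probes, and 31 of 38 differences were above 0. By complex, the medians were 0.18 for the 14 probes of complex I, 0.09 for the 4 of complex III, 0.13 for the 8 of complex IV and 0.21 for the 9 of complex V. None of these was called by limma, and 2 probes of complex I, 3 of complex IV and 2 of complex V had an unadjusted p below 0.05, all higher in BALB/C. The methods' t-test called none of them either, with 2 of complex I and 1 of complex IV at an unadjusted p below 0.05, as were 17.6% of all probes. The single probe of complex II, of Sdhd, had a difference of 0.36. Of 10 probes of proximal tubule markers, 3 were called in this comparison (Slc22a6 -1.32, Slc5a2 0.91 and Lrp2 0.59), as was Cd14 of 4 macrophage probes (-1.95), and their part in the member differences was not tested.

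This shift of the median followed 1 mouse in part. In DBA1 mouse 3 the member probes lay 0.30 below their mean over the 9 mice (median, quartiles -0.42 and -0.18), and 4 of 38 lay above that mean. Over all probes tested, the same mouse was at -0.01. The medians of the other 8 mice were between -0.13 (129/svj mouse 3) and 0.12 (BALB/C mouse 3). Citrate cycle genes were low in this mouse too (median -0.25 over 7 probes). Electron carriers and related genes were at -0.42 (3 probes) and biogenesis regulators at -0.32 (9 probes). Markers of the thick limb and distal tubule were at -0.40 (6 probes), of the collecting duct at -0.31 (4 probes) and of podocytes at -0.28 (2 probes). Proximal tubule markers were at -0.10 (10 probes) and assembly factors at -0.12 (8 probes). Macrophage markers were at 0.75 (4 probes), against 1.06 in 129/svj mouse 3, and endothelial markers at 0.44 (2 probes). The list of Vdac, Tomm, Timm, Immt and Phb genes was at 0.13 (5 probes), and at 0.14 and 0.06 in DBA1 mice 1 and 2. The part of these cell markers in the shift was not tested. Without DBA1 mouse 3 the member median was 0.10 for BALB/C minus the mean of DBA1 and 129/svj, and for BALB/C minus DBA1 it moved from 0.18 to 0.06. In B6 and NZW the medians of the 6 mice were between -0.07 and 0.07.

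**Figure D3:**
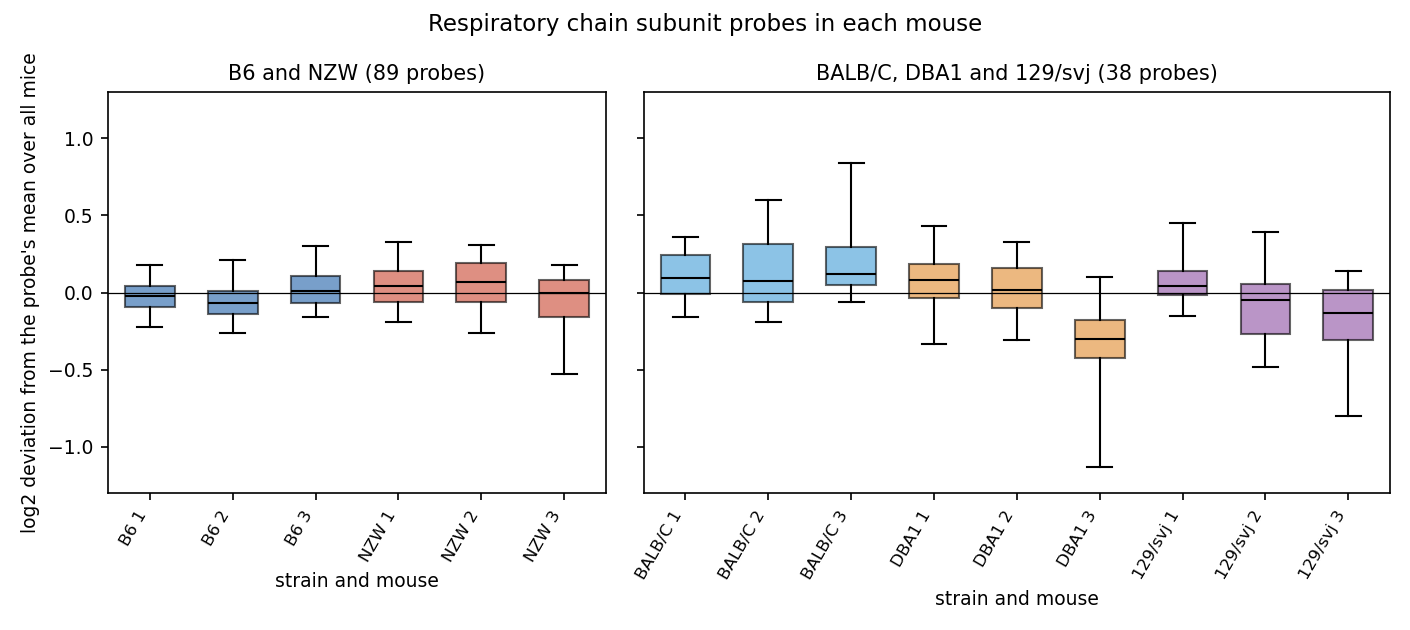
Deviation of each tested member probe from its own mean over all mice of the table, in log2 units (vertical axis), for each mouse (horizontal axis). Boxes show the median and quartiles over 89 probes (left) or 38 probes (right), and whiskers the range from the lowest to the highest 5% of probes. DBA1 mouse 3 lies lowest, with a median of -0.30, and the other mice have medians from -0.13 to 0.12.

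Pairs of strains in this table shared mice, so their differences are given side by side. BALB/C minus DBA1 had 3 called member probes of 38 (5.75% of all probes were called), all higher in BALB/C: Cox7a2l, Cox8b and Ndufb8. BALB/C minus 129/svj had 1, Cox7a2l, where 4.82% of all probes were called. DBA1 minus 129/svj had 3, with Cox7a2l higher and Cox8b and Ndufb8 lower in DBA1, where 4.48% of all probes were called. The Ndufb8 probe of this table carries the target identifier shared by the dim and the bright probe above, so it cannot be tied to either. Its signals were 485, 509 and 535 in BALB/C, 363, 385 and 330 in DBA1 and 444, 498 and 509 in 129/svj. DBA1 was lowest, by 0.65 ± 0.13 against BALB/C (adjusted p = 0.019) and by -0.56 against 129/svj (adjusted p = 0.045), a call that was lost on leaving out any 1 mouse but 129/svj mouse 3. The BALB/C minus DBA1 call was lost without BALB/C mouse 2 or 3 or DBA1 mouse 1 (adjusted p from 0.073 to 0.091).

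Cox7a2 was at 9.81 ± 0.11 in BALB/C, 9.52 ± 0.37 in DBA1 and 9.05 ± 0.27 in 129/svj (SD, n = 3 mice), and BALB/C exceeded 129/svj by 0.77 (adjusted p = 0.07). Without DBA1 mouse 3 this difference was called (adjusted p = 0.019), as were Atp5e (1.15, adjusted p = 0.011) and a probe of Atp5k (0.81, adjusted p = 0.04). Atp5e, the epsilon subunit of ATP synthase, was at 7.15 in BALB/C, 7.14 in DBA1 and 5.99 in 129/svj, and the difference of 1.16 between BALB/C and 129/svj had an adjusted p of 0.06. Cox4i1 was at 14.09, 14.05 and 14.08 in BALB/C, DBA1 and 129/svj, and its differences were within 0.04.

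Among the heart and muscle isoforms of complex IV, Cox8b had the largest SD within a strain of any member, 0.94 in B6 and 1.19 in DBA1. Cox8b had signals of 453, 1470 and 673 in B6 and 434, 772 and 337 in NZW. The strains overlapped, and the difference of 0.80 ± 0.45 was not called (adjusted p = 0.26). In the other table its signals were 711, 1060 and 1020 in BALB/C, 309, 511 and 169 in DBA1 and 887, 712 and 1370 in 129/svj. All DBA1 mice lay below all others, by 2.15 ± 0.49 against BALB/C and by -2.21 against 129/svj (adjusted p = 0.031 in both). Without DBA1 mouse 3 the differences were 1.54 and -1.59 (adjusted p = 0.036 and 0.033). Both calls were lost with the methods' t-test (adjusted p = 0.15 and 0.17) and with no filter (0.08 and 0.084). The BALB/C minus DBA1 call was lost without any BALB/C mouse, DBA1 mouse 1 or 129/svj mouse 1, and DBA1 minus 129/svj without any 129/svj mouse, BALB/C mouse 2 or 3 or DBA1 mouse 1.

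Cox7a1 and Cox6a2 were lowest in the same DBA1 mouse as Cox8b. DBA1 mouse 3 had signals of 270 for Cox7a1 and 110 for Cox6a2, against 512 or more and 139 or more in the other 8 mice. Its array was dim, with a median signal of 119 against 130 to 152 on the first arrays of the other mice. After normalisation it was still lowest, at 7.50 for Cox7a1 and 4.97 for Cox6a2, against 8.64 or more and 5.24 or more. The BALB/C minus DBA1 difference was 0.97 (95% interval 0.30 to 1.63, adjusted p = 0.10) for Cox7a1 and 0.53 (-0.58 to 1.64) for Cox6a2. In B6 and NZW, Cox6a2 differed by -0.51 ± 0.23 (adjusted p = 0.16).

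Genes of brown fat, which also uses Cox8b and Cox7a1, were read beside these isoforms. Ucp1, the uncoupling protein of brown fat, had a signal of 1540 in B6 mouse 2 and of 76.6 to 225 in the other 5 mice of that table. Cidea was at 661 in B6 mouse 2 and at 87.8 to 121 in the others. B6 mouse 2 was also the mouse with the highest Cox8b. Its Cox7a1, however, was the lowest of the 6 mice (normalised 10.23, against 10.44 to 10.73), as was its Cox6a2 (6.48, against 6.98 to 7.63). NZW mouse 2, with a Ucp1 signal of 90.2, had a normalised Cox8b of 9.35, near the 9.44 of B6 mouse 3. Of the 4 brown fat genes of the list read in this table, Dio2 and Elovl3 were detected in no mouse, and the summed signal of the list was 520, 2490 and 641 in B6 and 471 to 554 in NZW. Without B6 mouse 2 the Cox8b difference was 0.32 (adjusted p = 0.64). The muscle genes Acta1, Ckm, Myh7 and Myl2 were detected in no mouse of B6 and NZW, Tnnt2 was detected in 2 of the 6 (signals of 107, 106 and 86.7 in B6 and 68.5 to 86.3 in NZW), and Ckm, Myh7 and Myl2 in no mouse of the other strains. Of the brown fat list, only Elovl3 was read in BALB/C, DBA1 and 129/svj (signals of 121 to 158), so brown fat could not be checked there. The part of fat in the Cox8b values was not tested.

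**Figure D4:**
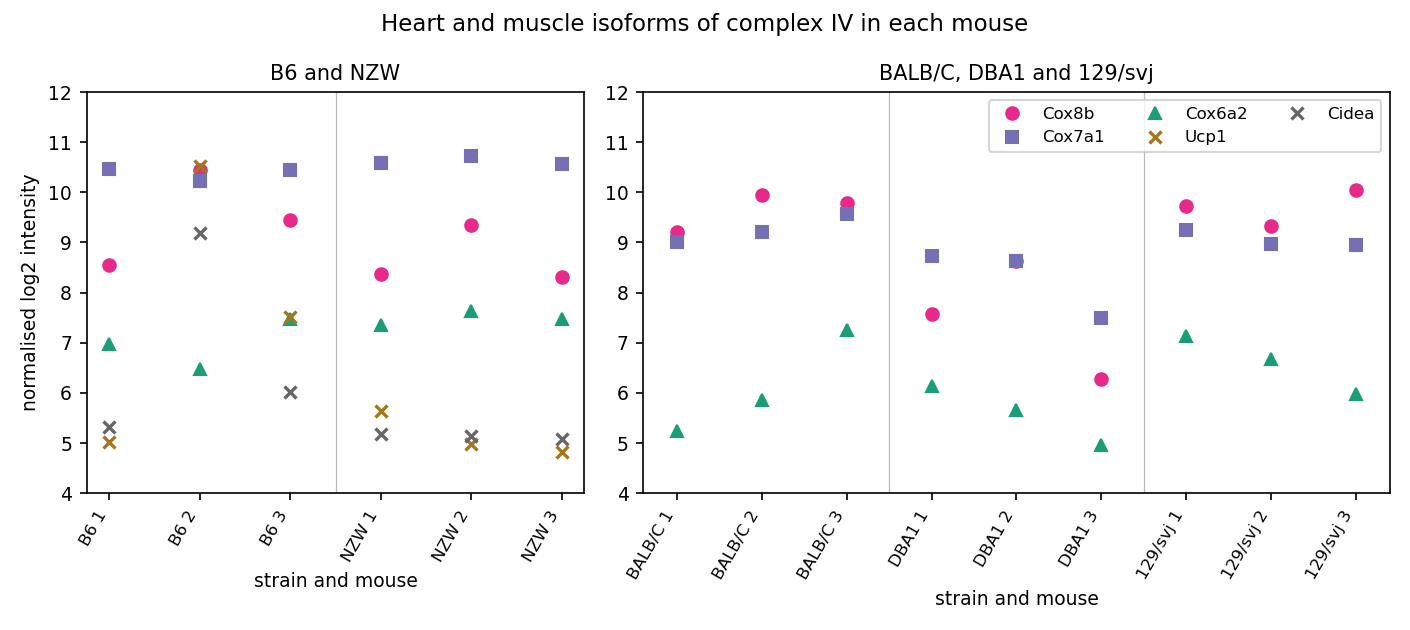
Normalised log2 intensity (vertical axis) of Cox8b, Cox7a1 and Cox6a2 in each mouse (horizontal axis), with the brown fat genes Ucp1 and Cidea in B6 and NZW. Ucp1 (10.52) and Cidea (9.18) stand out in B6 mouse 2, the B6 mouse with the highest Cox8b (10.45). Cox7a1 (10.23) and Cox6a2 (6.48) are lowest in that same mouse. In the other table all 3 isoforms are lowest in DBA1 mouse 3.

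The comparison of resistant with sensitive strains over both tables used the mean of the within-table differences on probes matched one to one, normalised together. Of 38 matched member pairs, 32 were tested and 2 were called, where 12% of all 6896 pairs were called. Cox7a2l had a fitted mean difference of 2.51 (adjusted p = 9.9e-11), from 1.92 to 2.86 over the alternatives, since the 129/svj mice had no detected signal. Cox7a2 had one of 1.86 ± 0.12 (adjusted p = 9.2e-08), from 1.20 to 2.03. Neither was spread evenly over the strains. The Cox7a2l difference was 5.01 in BALB/C minus DBA1 and 129/svj and 0.00 in B6 minus NZW. The Cox7a2 difference was 3.14 in B6 minus NZW and 0.57 in BALB/C minus the others. Treating strain as a random block in limma left Cox7a2 called and Cox7a2l at 2.86 with an adjusted p of 0.082. That fit took the correlation of mice within a strain as equal for all probes. It did not estimate the spread between strains for each probe, so the call does not show that strains of a class are alike.

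The within-table differences were tested against each other in the same fit. They differed at 3 of 32 member pairs, where 10.3% of all pairs did. Cox7a2l was more different in BALB/C minus DBA1 and 129/svj (by a fitted 5.01, adjusted p = 1e-10, and by 3.83 without background correction), and Cox7a2 in B6 minus NZW (-2.57 ± 0.25, adjusted p = 4.7e-06, and -1.37 without background correction). A probe of Atp5k, the e subunit of ATP synthase (ILMN_2776900), had differences of opposite sign, 0.61 ± 0.20 in BALB/C minus the others and -0.46 ± 0.23 in B6 minus NZW (1.07 ± 0.30 apart, adjusted p = 0.033). That call was lost without B6 mouse 1 or 2, NZW mouse 1 or 2, or any 1 BALB/C mouse (adjusted p from 0.05 to 0.095). Its second, brighter probe had differences of 0.16 and -0.27, which were 0.43 ± 0.22 apart (adjusted p = 0.27). The median gap over the 32 pairs was 0.24, against 0.04 over all pairs.

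**Figure D5:**
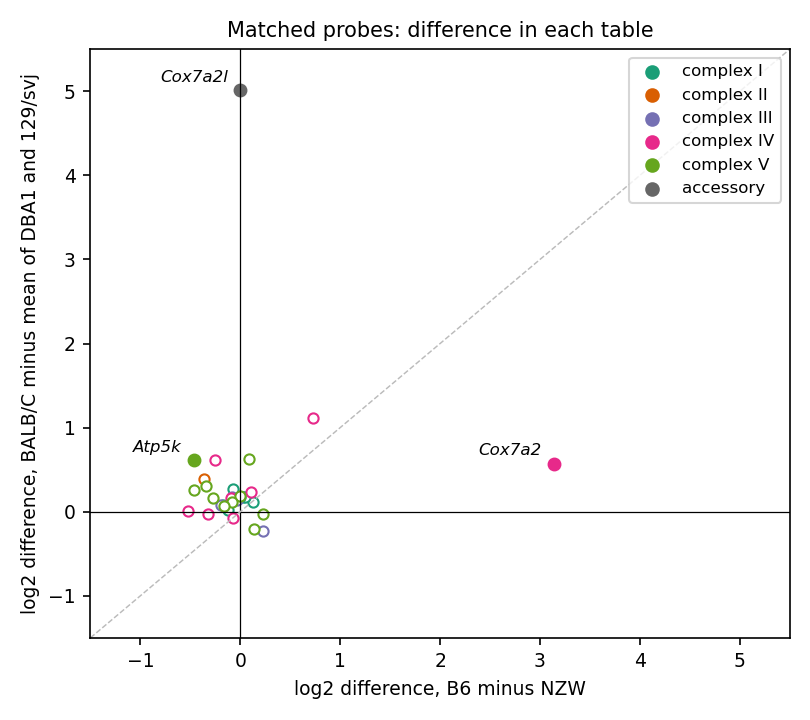
Log2 difference of each of 32 matched member pairs in BALB/C minus the mean of DBA1 and 129/svj (vertical axis) against that in B6 minus NZW (horizontal axis), coloured by complex. Filled points are the 3 pairs at which the differences of the tables differed (limma, adjusted p below 0.05), and the dashed line marks equal differences. Cox7a2l lies on the vertical axis at 5.01, Cox7a2 far to the right at 3.14, and Atp5k left of and above 0.

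Other genes of the pathway were read from lists of names. Of 23 tested probes of respiratory chain assembly factors in B6 and NZW, 3 were higher and 4 lower in B6 (18.8% of all probes were called). Ttc19, a complex III factor, and Tmem126b, a complex I factor, were higher by 1.5 ± 0.15 (adjusted p = 0.00018) and 1.3 ± 0.14 (adjusted p = 0.00026), and the pair of Acad9 probes was lower by -0.90 and -0.87. Of 8 assembly factor probes in BALB/C minus the mean of DBA1 and 129/svj, 1 was called (5.99% of all probes were called). It read Tmem126b, which was higher by 1.21 ± 0.11 (adjusted p = 1e-04). With the tables fitted apart, Tmem126b was called in the same direction in both comparisons of resistant with sensitive strains, and no member was. With the tables normalised together, Cox7a2 was (3.14 and 0.57, adjusted p = 2.3e-08 and 0.038).

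The next counts are set against the 18.8% of all probes called in B6 minus NZW, and most are near or below it. Electron carriers, ubiquinone synthesis and related genes had 3 of 15 tested probes called (20%), all lower, a pair of Coq5 (-1.10 and -0.71) and 1 of Coq6 (-0.46). The citrate cycle had 3 of 21 (14.3%), all lower: Suclg1 (-1.11 ± 0.17, adjusted p = 0.0024), Dld (-0.64) and Dlst (-0.36). Of 19 probes of regulators of mitochondrial biogenesis 2 were called (10.5%): the transcription factor Nrf1 was higher (0.41 ± 0.12, adjusted p = 0.046) and Tfam, which binds mitochondrial DNA, was lower (-0.36 ± 0.10, adjusted p = 0.044). The list of Vdac, Tomm, Timm, Immt and Phb genes had 4 of 12 (33.3%), of which Tomm22 was read by a pair of probes called in opposite directions (5.07 and -0.53). In BALB/C minus the mean of DBA1 and 129/svj no probe of these 4 lists was called, of 3, 7, 9 and 5 tested. Only 5.99% of all probes were called there, so no call among so few probes is not a contrast with B6 minus NZW.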

How the data were processed

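Kidney cortex RNA of 15 mice was read on 18 Illumina mouse BeadChip arrays. The authors deposited the bead-averaged intensity of each probe, without normalisation, in 2 tables. A detection p-value for each probe and array was deposited beside it. The number of arrays limits the precision.

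Each table was corrected and normalised alone in limma 3.58.1 (R 4.3.3): background was estimated through the detection p-values (normexp) and 16 was added as the offset, before quantile normalisation and log2. Repeat arrays were averaged. Probes with a detection p-value of at most 0.05 in at least 3 mice were fitted with lmFit and eBayes, with 1 coefficient per strain, and p-values were adjusted by Benjamini-Hochberg over all probes tested. Intervals are 95%. Probes matched one to one between the tables were quantile normalised together for the comparisons over both. On simulated data, 200 probes changed by 1 on the log2 scale were recovered at 99% in B6 minus NZW (16766 probes), 85% in BALB/C minus the mean of DBA1 and 129/svj (15818 probes) and 99.5% over both tables (6896 pairs). The noise was drawn from the spread fitted to each probe, so this checks the fitting steps. Recovery of smaller differences, such as those of most members, was not simulated.

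The members and gene lists were chosen with earlier results of these data known. Members were named by a rule: the subunits of complex II, the isoform sets of complexes IV and V with Ndufa4, the called members of each comparison and complex, and at most 4 called genes of another list. The other members named, such as Ndufv1, Uqcrc1, Atp5c1, Atp5e and Atp5k, were chosen after their values were seen. Alternatives changed the background correction, scaling, filter, test, replicate block, repeat arrays and each mouse in turn. Figures were drawn with matplotlib 3.10.9. P-values measure the spread between the mice sampled. One member gene is not reported here.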

Additional observations from a re-analysis of the deposited data

Results flagged for a closer look

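The strain differences of the tables differed at 3 matched member pairs, by a limma test of B6 minus NZW against BALB/C minus the mean of DBA1 and 129/svj. Of all pairs, 10.3% differed. Cox7a2l differed by a fitted 5.01 (adjusted p = 1e-10), with 5.01 in BALB/C minus the others and 0.00 in B6 minus NZW. Its probe was detected in no 129/svj mouse, so the size depends on the background handling, and it was 3.83 without background correction. Cox7a2 differed by -2.57 ± 0.25 (SE, adjusted p = 4.7e-06), with 0.57 and 3.14 in the same order. A probe of Atp5k differed by 1.07 ± 0.30 (adjusted p = 0.033), with 0.61 and -0.46. Strain, table and the sequence under each probe cannot be told apart in these values.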

How the results depend on the processing

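No called result changed its direction under any alternative. The calls of Cox7a2 and of the dim Ndufb8 probe in B6 minus NZW, and of Cox7a2l in the other table, held in every alternative that tested those probes. Percentages in brackets are the shares of all probes or pairs called under the same setting. In B6 minus NZW, 3 member probes were called (18.8%), all higher in B6. With 75th percentile scaling 12 were called, 2 higher and 10 lower (21.6%). Without background correction 7 were called (20.7%), and 7 with offset 50 (20.4%), 3 higher and 4 lower in each. With eBayes trend and robust 12 were called, 7 higher and 5 lower (21.2%). The methods' t-test called 7, 4 higher and 3 lower, once adjusted by Benjamini-Hochberg (11%), and 27 with its unadjusted p (28.5%). Joint normalisation called 1 of 32 pairs (9.83%). In BALB/C minus the mean of DBA1 and 129/svj, 1 was called (5.99%). There, detection in every mouse gave 0 by limma (5.11%), with 5 at an unadjusted p below 0.05. The methods' t-test, unadjusted, gave 4 (17.6%) and joint normalisation 2 (9.64%). In BALB/C minus 129/svj, 1 was called (4.82%). There, no background correction, offset 50, and trend and robust gave 2 each (5.07%, 5.13% and 5.05%). Detection in every mouse gave 0 by limma (4.13%), with 4 unadjusted. The methods' t-test, unadjusted, gave 4 (14.5%) and joint normalisation 4 (7.47%). The same unadjusted t-test gave 8 in BALB/C minus DBA1 (17%) and 8 in DBA1 minus 129/svj (13.4%), with 3 called in each by limma. It gave 9 pairs whose differences differed (21.4%), with 3 called by limma. Over both tables, 2 were called (12%). There, detection in every mouse, which leaves Cox7a2l out, gave 0 by limma (12.5%), with 1 unadjusted, and strain as a random block 1 (1.52%). The pairs whose differences differed fell to 1 under detection in every mouse (11.5%).

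Leaving out each mouse in turn gave 2 to 6 calls in B6 minus NZW. There were 6 without NZW mouse 1 and 6 without NZW mouse 3, where 16.2% and 15.1% of all probes were called. It gave 1 to 2 in BALB/C minus the mean of DBA1 and 129/svj, 1 to 3 in BALB/C minus DBA1 and 1 to 3 in DBA1 minus 129/svj. In BALB/C minus 129/svj it gave 1 to 4, with 4 without DBA1 mouse 3 (6.16% of all probes). It gave 2 to 3 over both tables, and 2 to 4 for differences that differed. The deviations of same-numbered mice had correlations of -0.07 to 0.01 in B6 and NZW and -0.26 to 0.39 in the other table, against -0.02 to 0.08 and -0.42 to 0.40 for other numbers. DBA1 and 129/svj pairs were at 0.19, 0.10 and 0.39, but DBA1 mouse 1 was closer to 129/svj mouse 2 (0.34), and the numbers were not taken as a pairing. The replicate block gave 3 calls in B6 minus NZW (15.6% of all probes), without Ndufb3 (adjusted p = 0.069) and with Cox8b (0.80, adjusted p = 0.036). It gave 4 in BALB/C minus DBA1 with Ndufab1 added (5.77%) and 2 in BALB/C minus 129/svj with Atp5e added (4.68%). In DBA1 minus 129/svj it gave 3 (2 higher, 1 lower), with Atp5e added and Ndufb8 lost (adjusted p = 0.066), where 4.29% of all probes were called. Levels near background limit Cox7a2 in NZW and Cox7a2l in 129/svj.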
